A study of Mus musculus with 24 samples.

Results

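The genes described here make cholesterol and long-chain fatty acids, or control that synthesis, and they were followed in interferon-treated NIH-3T3 cells, an immortal line of fibroblasts from mouse embryos. They are 28 genes taken by symbol: all probe sets of the arrays annotated with a single symbol that is a member, with older symbols accepted for Msmo1 and Sc5d. This gave 62 of the 45037 probe sets, for 27 of the 28 genes, and Acat2, the cytosolic thiolase that starts the pathway, had none. Of the 62 probe sets 53 had a signal above log2 4, taken as background, on at least 3 arrays and were tested. These 53 cover all 27 genes, and the 9 that were not tested are further probe sets of Lss, Sc5d, Fdps, Fdft1, Hsd17b7 and Acly. A gene is represented below by its probe set with the highest mean signal unless another is named.

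Total cellular RNA was measured on 24 one-colour arrays in 7 groups. Cells given IFN-alpha, IFN-gamma or neither (mock) were collected after 3 h, with 3 arrays each, and after 1 h, with 4 arrays each. The last group, with 3 arrays, was mock-treated for 1 h and had no 4-thiouridine (4sU), a uridine analogue that cells incorporate while they transcribe. Interferon was used at 100 U/ml, and mock cells received the same fresh medium without it, so every group had its medium changed at the start. The 3 h groups all had 500 uM 4sU from 150 to 180 min, and the other 1 h groups 200 uM for 60 min. All groups are of 1 cell line, and the labels do not say whether arrays of a group come from separate cultures. The p-values therefore measure the spread between arrays, which may be technical.

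Cholesterol is built from acetyl-CoA through mevalonate, isoprenoid diphosphates, squalene and lanosterol. Transcription of these enzymes is driven by the SREBP factors (Srebf2 chiefly for sterols, Srebf1 chiefly for fatty acids), which stay in the endoplasmic reticulum bound to Scap and Insig proteins while sterol is plentiful and are cut and released to the nucleus when it is scarce. Fatty acids are built from the same acetyl-CoA, which Acly splits from citrate, Acaca carboxylates and Fasn joins into palmitate. Elovl6 then lengthens the chain and Scd1 and Scd2 desaturate it. In macrophages interferon is known to lower sterol synthesis, in part through the oxysterol made by Ch25h.

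RefSeq promoter windows (GRCm38.p6, from 250 bases before to 50 after the start) were at hand for 22 of the 28 members, 27 windows in all. None was given for Fdps, Fdft1, Sqle, Stard4, Scd1 and Scd2. The 5 shown are the window with the textbook sterol regulatory element, that of the SREBP retention factor, that of a later sterol enzyme, the member window that holds interferon-type motifs, and that of the gene called between the mock times. Capitals mark matches, on either strand, to 6 motifs: TCACCCCAC (sterol regulatory element), CCAAT (NF-Y box), GGGCGG (GC box), CACGTG (E-box), GAAA and GAAA 2 bases apart (interferon-stimulated response element) and TTCNNNGAA (gamma-activated site). They may overlap one another.
Hmgcs1, chr13:119690101-119690400, plus strand: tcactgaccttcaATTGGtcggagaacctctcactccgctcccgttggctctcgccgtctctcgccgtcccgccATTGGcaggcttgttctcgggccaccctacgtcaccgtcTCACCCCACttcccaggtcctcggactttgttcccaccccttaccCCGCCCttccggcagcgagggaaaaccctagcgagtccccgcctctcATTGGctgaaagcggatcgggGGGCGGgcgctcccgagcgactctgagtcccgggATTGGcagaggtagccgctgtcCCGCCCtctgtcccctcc
Insig1, chr5:28071162-28071461, plus strand: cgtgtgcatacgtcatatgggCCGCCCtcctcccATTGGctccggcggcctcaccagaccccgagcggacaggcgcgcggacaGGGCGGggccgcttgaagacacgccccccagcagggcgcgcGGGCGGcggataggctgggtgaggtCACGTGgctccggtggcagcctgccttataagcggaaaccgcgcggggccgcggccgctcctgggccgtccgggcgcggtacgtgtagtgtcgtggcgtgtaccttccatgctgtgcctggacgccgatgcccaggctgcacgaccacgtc
Cyp51, chr5:4104648-4104947, minus strand: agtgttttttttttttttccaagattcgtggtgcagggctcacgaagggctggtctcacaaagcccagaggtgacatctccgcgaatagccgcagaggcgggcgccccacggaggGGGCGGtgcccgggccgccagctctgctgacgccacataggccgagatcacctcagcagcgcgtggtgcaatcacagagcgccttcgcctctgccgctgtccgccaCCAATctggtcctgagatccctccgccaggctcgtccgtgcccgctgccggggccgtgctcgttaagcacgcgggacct
Ebp, chrX:8193463-8193762, minus strand: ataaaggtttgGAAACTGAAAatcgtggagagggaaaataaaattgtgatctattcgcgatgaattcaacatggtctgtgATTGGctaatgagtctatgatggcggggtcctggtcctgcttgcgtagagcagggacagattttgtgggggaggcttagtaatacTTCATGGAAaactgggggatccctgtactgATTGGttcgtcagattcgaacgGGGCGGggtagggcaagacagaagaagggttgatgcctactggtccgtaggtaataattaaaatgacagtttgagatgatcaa
Acaca, chr11:84195188-84195487, plus strand: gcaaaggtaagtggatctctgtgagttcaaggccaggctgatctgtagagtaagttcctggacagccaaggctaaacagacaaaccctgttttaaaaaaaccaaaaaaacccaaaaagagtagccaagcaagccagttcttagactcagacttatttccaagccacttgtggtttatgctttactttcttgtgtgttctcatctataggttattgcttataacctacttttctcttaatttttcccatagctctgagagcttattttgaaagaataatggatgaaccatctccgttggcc

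The Hmgcs1 window held the sterol regulatory element from -137 to -129, counted from the start site, among 4 CCAAT matches. The Ebp window held an interferon-stimulated response element match from -239 to -230 and a gamma-activated site match from -85 to -77. No capitals appear in the Acaca window, which says only that these letters are not in these 300 bases. Among the 22 members with a window 19 (86.4%) held CCAAT, against 43.9% of the 7724 genes tested on the arrays that have a window and 37.4% of all 32851 windows. GGGCGG was in 81.8% of members and 72.3% of tested genes (35.7% of all windows), and CACGTG in 18.2% and 12.3% (7.15%). The exact letters TCACCCCAC were in 4.55% of members (1 of 22), 0.673% of tested genes and 0.551% of all windows. Sterol regulatory elements with other letters were not searched, so a window without a match may still hold one. With 1 member matched, the members' share cannot be set apart from that of other genes.

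The interferon-type letters were found in 1 member window each, too few to set the members' share apart from or level with that of other genes. The letters of the response element were found in 4.55% of members (1 of 22), against 28.3% of the 138 genes with a window that rose with IFN-alpha at 3 h, 3.61% of tested genes and 3.44% of all windows. TTCNNNGAA was found in 4.55% of members, against 33.3% of the 30 such genes that rose with IFN-gamma at 1 h, 7.86% of tested genes and 8.3% of all windows. A gene counts once if any of its windows matches, and a match is a description of letters, not a bound site.

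**Figure D1:**
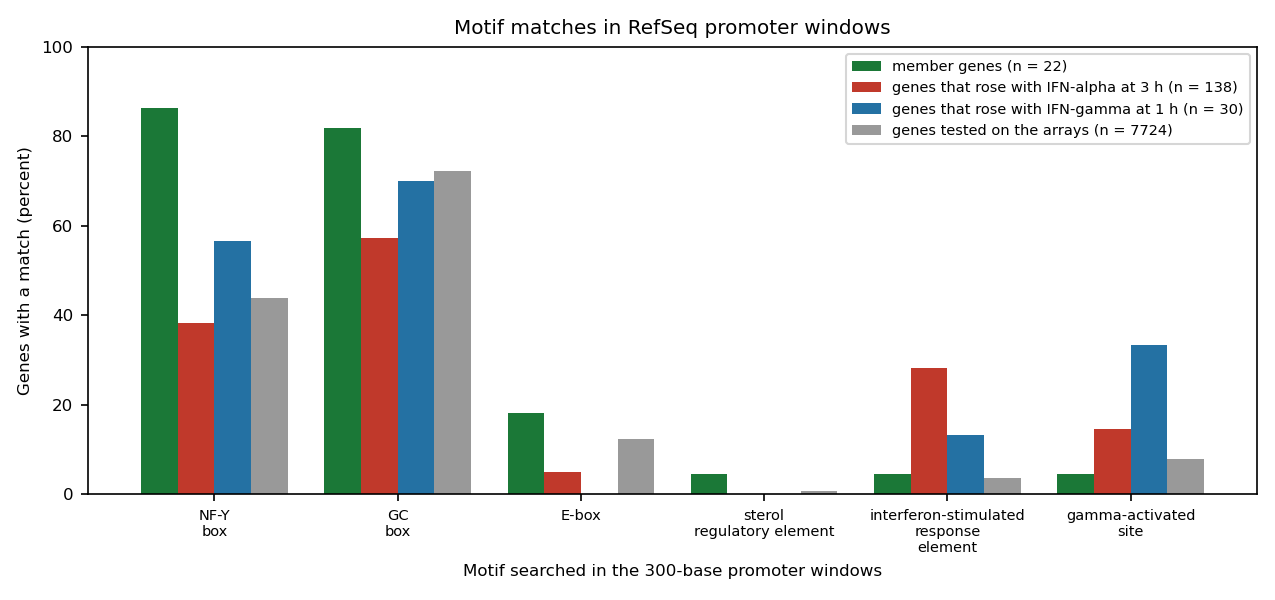
Share of genes (percent, vertical axis) whose RefSeq promoter window matches each of 6 motifs, for the 22 member genes, 138 genes that rose with IFN-alpha at 3 h, 30 that rose with IFN-gamma at 1 h and 7724 tested genes. CCAAT matched 86.4% of members and 43.9% of tested genes, whereas the interferon-stimulated response element matched 4.55% of members and 28.3% of the genes that rose with IFN-alpha.

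The signal is log2 of the GCRMA value, and the median of an array lay between 2.95 and 3.11. In RNA from a whole culture, fewer cells making a transcript and less of it per cell cannot be told apart. Of 12 fibroblast and matrix markers 12 were above background (median of their means 12.16), and Vim averaged 13.81. Of adipocyte markers 2 of 9 were above background, with Lpl highest at 8.95, of leukocyte markers 1 of 8 (Cd14, 5.35), and of epithelial and endothelial markers 0 of 7. Of 6 interferon response genes 5 rose with IFN-alpha and 5 with IFN-gamma at 3 h. At 1 h 5 rose with IFN-alpha and 4 with IFN-gamma. These counts set treated cells apart from mock but do not tell the interferons from each other. The genes were chosen with earlier results of these data known, so this is no independent check of the labels. In 5 arrays the actin control probe sets for the 3′ end of the transcript exceeded those for the 5′ end by 2.22 to 3.43, against 0.785 to 1.37 in the other 19. These 5 are replicate 2 of the IFN-alpha, IFN-gamma and mock groups at 1 h and replicates 2 and 3 of mock without 4sU. The median SD of the member genes within a group was 0.0676 for IFN-alpha, 0.0883 for IFN-gamma and 0.0752 for mock at 3 h, and 0.272, 0.278 and 0.271 for the same treatments at 1 h (0.238 without 4sU).

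**Figure D2:**
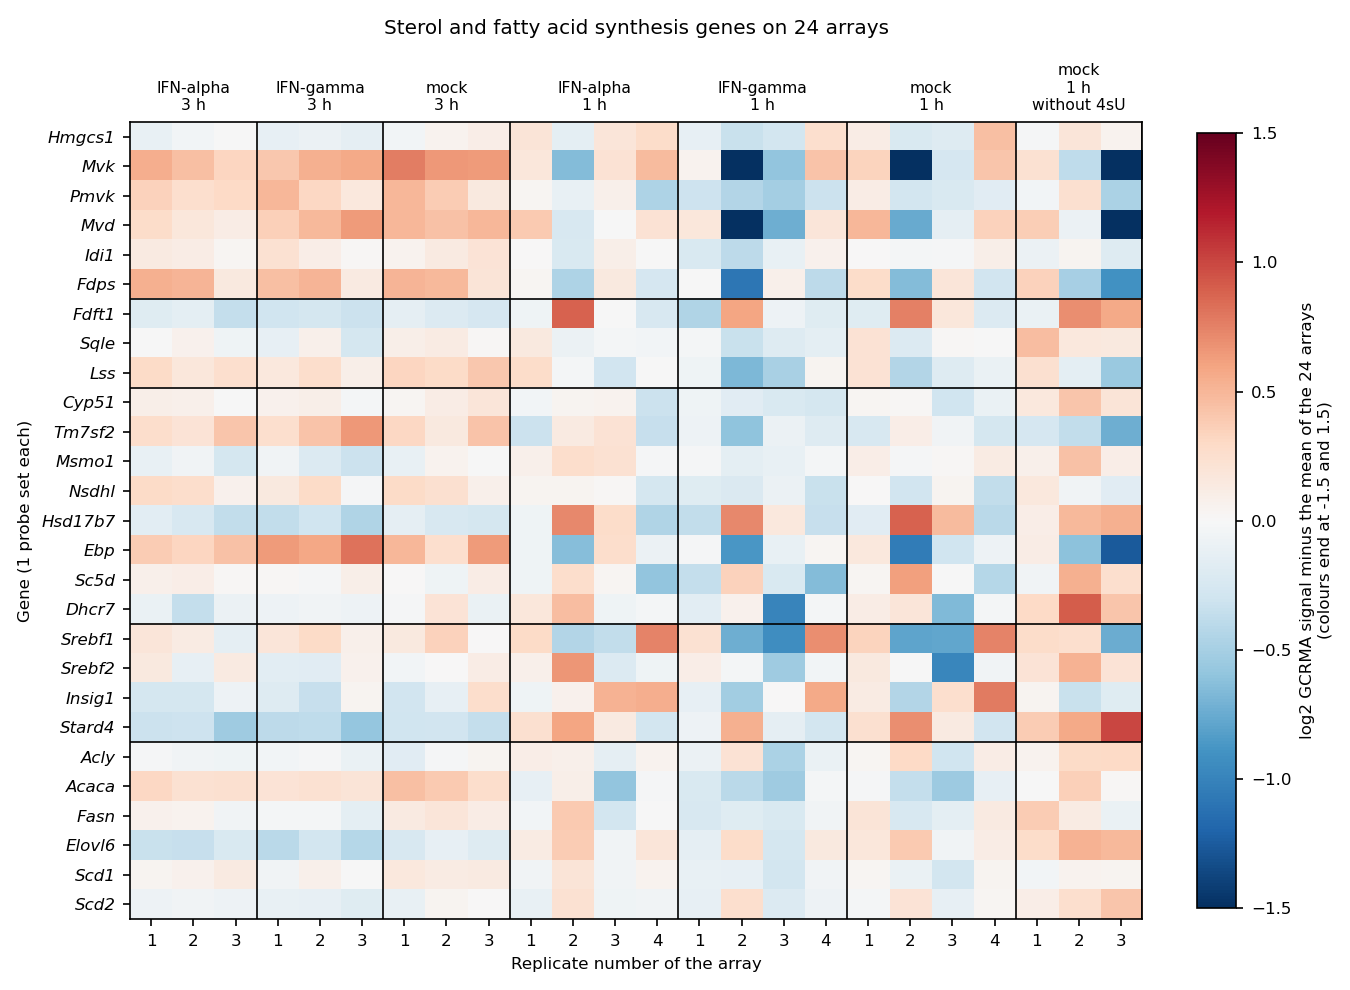
Signal of 27 member genes (rows, 1 probe set each, in pathway order) on 24 arrays (columns, by group and replicate number), as log2 GCRMA signal minus the gene's mean of the 24 arrays, with colours ending at -1.5 and 1.5. Columns of the 3 h groups look alike, while the replicate 2 columns at 1 h and the replicate 2 and 3 columns without 4sU stand apart, with Mvk and Ebp low and Fdft1 and Stard4 high.

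With IFN-alpha at 3 h the signals of the synthesis genes stayed close to those of mock cells. None of the 27 genes was called (limma adjusted p under 0.05), while 1.83% of the 9421 genes tested were called, and at an unadjusted p under 0.05 it was 0 of 27, against 3.59% of all genes. The median difference from mock was -0.07 over the members and -0.07 over all genes, and 22 of 27 were below 0 where 70.3% of all genes were. The largest difference was -0.29 for Mvd, which decarboxylates diphosphomevalonate.

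Msmo1, the methylsterol oxidase that removes methyl groups from lanosterol products, had the smallest p. Its signal was 11.30, 11.36 and 11.15 in IFN-alpha cells, against 11.31, 11.47 and 11.42 in mock cells, and the groups overlapped (difference -0.12 ± 0.13, SE; adjusted p = 1). Dhcr7, the reductase of the last step to cholesterol, had 7.06, 6.81 and 7.07 in IFN-alpha cells, against 7.14, 7.37 and 7.06 in mock cells. Its difference was -0.21 ± 0.25 (95% interval -0.73 to 0.31), and IFN-alpha replicate 2 was the lowest of the 6 arrays. Elovl6 had 9.71, 9.70 and 9.81 in IFN-alpha cells, against 9.80, 9.92 and 9.85 in mock cells, a difference of -0.12 ± 0.15 with a narrow overlap. With array weights Dhcr7 alone of the members was called, at -0.31 and an adjusted p of 0.0437, in a limma fit that called 10.5% of all genes.

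With IFN-gamma at 3 h again 0 of 27 were called, against 2.35% of all genes, and 0 of 27 had an unadjusted p under 0.05 in limma, against 5.25% of all genes. The median difference was -0.11 over the members and -0.05 over all genes, and 22 of 27 were below 0 where 65% of all genes were. With the replicate number as a block 4% of all genes were called and still 0 members, with a smallest adjusted p of 0.622. All 6 fatty acid genes had differences below 0, from -0.21 for Fasn to -0.01 for Acly. The 3 genes from squalene to lanosterol lay between -0.18 for Sqle, the squalene epoxidase, and -0.10 for Fdft1, the squalene synthase.

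Arrays did not overlap, with IFN-gamma lower, for 10 of 27 genes at 3 h: Hmgcs1, Mvk, Fdft1, Lss, Hsd17b7, Stard4, Acaca, Fasn, Elovl6 and Scd1. The same held for 15.8% of all genes. With IFN-alpha it was 3 of 27 (Mvk, Mvd and Fasn), where 15.6% of all genes did so. Both treatments share the mock arrays. These counts are by gene value and depend on the probe set. On every other tested probe set of Mvk, Lss, Hsd17b7, Stard4, Acaca, Elovl6 and Scd1 the IFN-gamma and mock arrays overlapped. So did the IFN-alpha and mock arrays on the other tested probe sets of Mvk and Mvd. Fasn, the fatty acid synthase, is the one of these 10 among the 3 smallest p-values, with 10.30, 10.30 and 10.19 in IFN-gamma cells, against 10.46, 10.51 and 10.43 in mock cells, a difference of -0.21 ± 0.16 (adjusted p = 1). IFN-alpha cells had 10.39, 10.38 and 10.27.

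Msmo1 had 11.37, 11.21 and 11.09 in IFN-gamma cells, against 11.31, 11.47 and 11.42 in mock cells (-0.17 ± 0.13). Sqle had 11.14, 11.34 and 10.99, against 11.35, 11.39 and 11.27 in mock cells (-0.18 ± 0.14). In both genes IFN-gamma replicate 3 was the lowest array and another IFN-gamma array lay within the mock range. With array weights Fasn (-0.21, adjusted p = 0.0236 in limma) and Elovl6 were called, in a fit that called 12.8% of all genes. For genes measured with the smallest error the intervals at 3 h were narrow: for Scd1 the 95% interval was -0.30 to 0.19 with IFN-alpha and -0.37 to 0.11 with IFN-gamma. For Mvk, with the largest error, it was -1.39 to 0.90 and -1.33 to 0.96. The errors and intervals at 3 h rest on 1 spread per probe set over all 7 groups. The median member SD within a group was 0.0676 to 0.0883 at 3 h and 0.238 to 0.278 at 1 h. The 3 h errors therefore take in the wider 1 h spread and are not the spread of the 3 h arrays alone.

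The genes that control the pathway were not called at 3 h with either interferon (adjusted p = 1 for each in limma). Srebf2 averaged 8.35 with IFN-alpha, 8.21 with IFN-gamma and 8.32 in mock cells, differences of 0.03 ± 0.25 and -0.11 ± 0.25. Srebf1 averaged 7.14 with IFN-alpha, 7.26 with IFN-gamma and 7.25 in mock cells, with errors of 0.43 on its differences of -0.11 and 0.01. Insig1, itself a target of SREBP, was -0.15 ± 0.27 with IFN-alpha and -0.12 ± 0.27 with IFN-gamma. Of the late sterol enzymes Nsdhl was 0.0065 ± 0.15 and -0.06 ± 0.15, and Sc5d, the lathosterol desaturase, 0.04 ± 0.25 and 0.0085 ± 0.25.

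**Figure D3:**
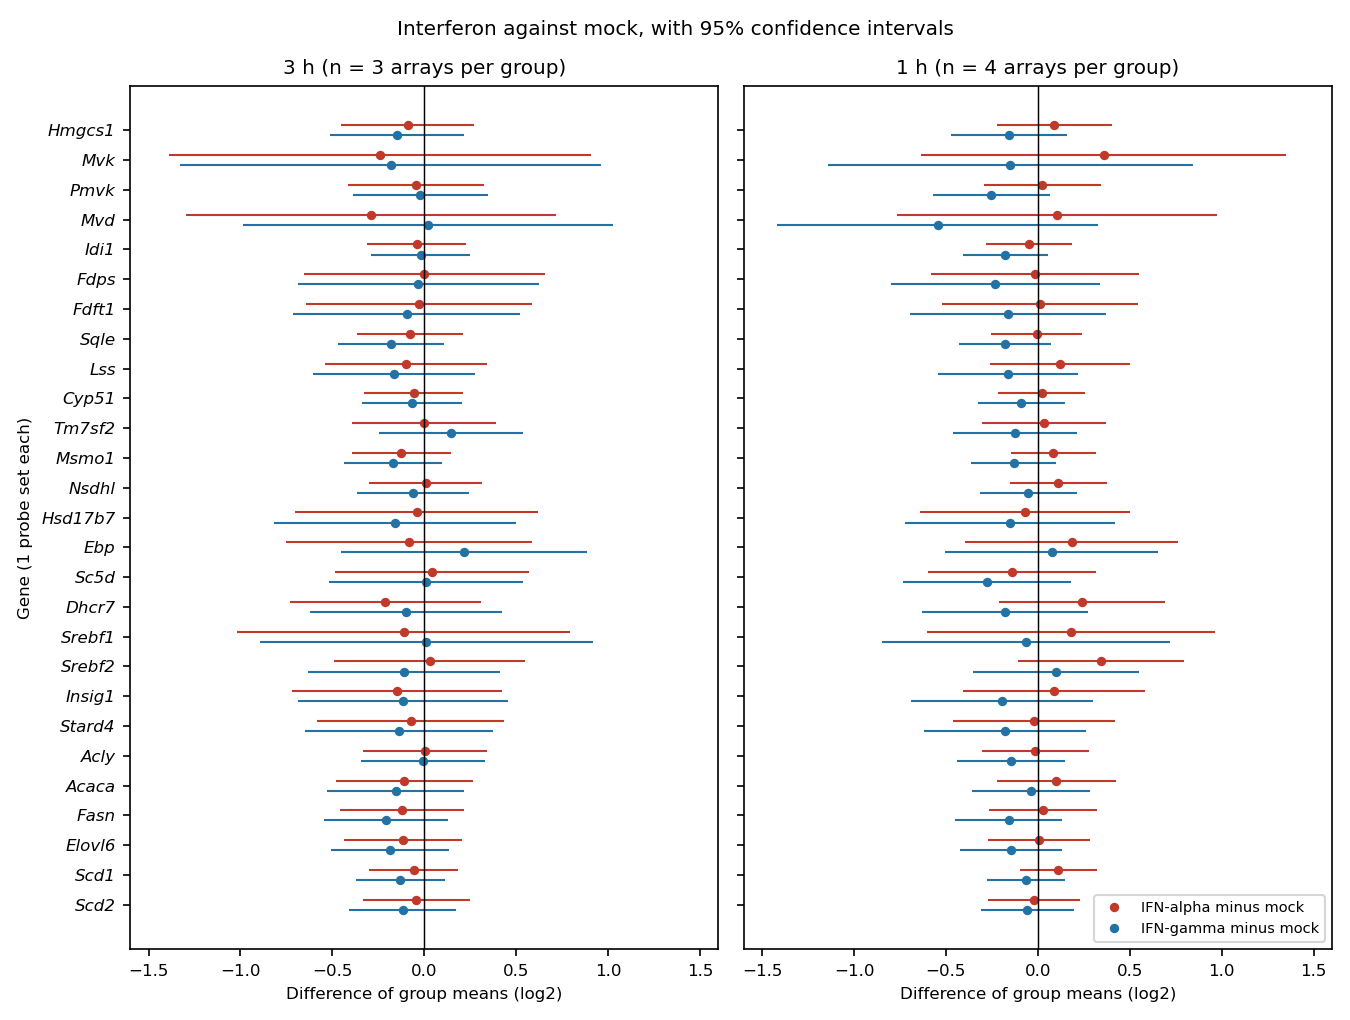
Difference from mock (log2, horizontal axis) of 27 member genes (rows, in pathway order) with IFN-alpha (red) and IFN-gamma (blue), at 3 h with 3 arrays per group (left) and at 1 h with 4 (right). Points are differences of group means and lines 95% confidence intervals. In this fit of all 7 groups, without the replicate block, every interval spans 0.

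At 1 h no member passed the test with either interferon. With IFN-alpha 0 of 27 members were called (0.308% of all genes; 0.467% with the replicate block), and in limma 0 of 27 had an unadjusted p under 0.05 (1.17% of all genes). The median was 0.03 over the members and -0.0024 over all genes, with 8 of 27 below 0, against 50.6% of all genes. Within replicate numbers 1 to 4 the IFN-alpha members lay on both sides of 0, with 18, 6, 9 and 17 of 27 below it and medians of -0.07, 0.18, 0.13 and -0.03, where 55.8%, 50.6%, 48.2% and 54.6% of all genes were below 0. With IFN-gamma 0 of 27 were called (0.456% of all genes; 1.03% with the block, smallest member adjusted p 0.279), and 0 of 27 had an unadjusted p under 0.05 (2.63% of all genes). The median was -0.15 over the members and -0.04 over all genes, and 25 of 27 were below 0, where 63.2% of all genes were. The 2 above 0 were Ebp and Srebf2.

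The share below 0 with IFN-gamma differed between the replicate numbers. Within numbers 1 to 4 it was 26, 21, 22 and 15 of 27, where 60.9%, 54.5%, 52.7% and 62.4% of all genes were. All 6 measured mevalonate genes were below 0, from -0.55 for Mvd to -0.15 for Mvk, and all 6 fatty acid genes, from -0.16 to -0.04.

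Pmvk, the phosphomevalonate kinase, had the smallest p with IFN-gamma. It had 8.28, 8.16, 8.08 and 8.27 in IFN-gamma cells, against 8.70, 8.31, 8.37 and 8.43 in mock cells, a difference of -0.25 ± 0.15 (95% interval -0.57 to 0.07; adjusted p = 1). It was the only 1 of 27 whose arrays did not overlap, where 0.605% of all genes were lower without overlap. Idi1, which isomerises isopentenyl diphosphate, had 11.39, 11.22, 11.50 and 11.69 in IFN-gamma cells, against 11.62, 11.58, 11.60 and 11.70 in mock cells (-0.18 ± 0.11). Sqle had 11.24, 10.93, 11.07 and 11.12, against 11.48, 11.06, 11.27 and 11.25 in mock cells (-0.18 ± 0.12). In Sqle 1 mock array, replicate 2, lay within the IFN-gamma range, and in Idi1 IFN-gamma replicate 4 lay within the mock range. Set against the mock array of the same replicate number, all 3 genes were lower with IFN-gamma in 4 of 4 pairs, and none was called with the replicate block.

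With IFN-alpha at 1 h the smallest p was that of Srebf2, the sterol-directed SREBP. It had 8.38, 8.97, 8.09 and 8.24 in IFN-alpha cells, against 8.44, 8.29, 7.32 and 8.25 in mock cells (0.34 ± 0.22). Mock replicate 3 was the lowest of the 8 arrays. Scd1 had 10.73, 10.99, 10.73 and 10.85 in IFN-alpha cells, against 10.82, 10.70, 10.52 and 10.83 in mock cells (0.11 ± 0.10), and Dhcr7 had 7.34, 7.63, 7.10 and 7.14, against 7.27, 7.35, 6.50 and 7.13 in mock cells (0.24 ± 0.22). The groups overlapped in all 3 genes, and the adjusted p was 1 for each. Replicate 2, of low 5′ actin signal, was the highest IFN-alpha array in all 3.

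Set against each other at 1 h, IFN-alpha cells had the higher mean in 27 of 27 genes, with a median of 0.17 where that of all genes was 0.04 and 38.9% of all genes were below 0. None was called (0.403% of all genes; 0.839% with the replicate block, smallest member adjusted p 0.36), and in limma 0 of 27 had an unadjusted p under 0.05 (2.56% of all genes). Within replicate numbers 1 to 4 IFN-alpha was the higher in 24, 23, 25 and 16 of 27, where 46.9%, 45.9%, 46.1% and 40.6% of all genes were below 0, so that the members' count in number 4 was at the share of all genes. Dhcr7 had the smallest p, with 7.34, 7.63, 7.10 and 7.14 in IFN-alpha cells, against 6.998, 7.23, 6.17 and 7.14 in IFN-gamma cells (0.42 ± 0.22). IFN-gamma replicate 3 was the lowest of these 8 arrays. Msmo1 had 11.50, 11.68, 11.65 and 11.40 in IFN-alpha cells, against 11.40, 11.28, 11.30 and 11.39 in IFN-gamma cells (0.21 ± 0.11). Pmvk had 8.62, 8.48, 8.67 and 8.13, against 8.28, 8.16, 8.08 and 8.27 in IFN-gamma cells (0.28 ± 0.15), with IFN-alpha replicate 4 inside the IFN-gamma range.

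At 3 h the direct comparison had a median of 0.05 over the members and -0.01 over all genes, with 9 of 27 below 0, against 53.6% of all genes. None was called (1.87% of all genes; 3.76% with the replicate block), and 0 of 27 had an unadjusted p under 0.05 in limma (4.72% of all genes). Ebp, the sterol isomerase whose window holds the interferon-type letters, had 9.06, 9.003 and 9.12 in IFN-alpha cells, against 9.32, 9.26 and 9.503 in IFN-gamma cells. These did not overlap, and the difference was -0.30 ± 0.32 (adjusted p = 1). Arrays did not overlap, with IFN-alpha lower, for 3 of 27 genes (Ebp, Mvd and Dhcr7) and 11.5% of all genes, and with IFN-alpha higher for 2 of 27 (Acaca and Scd2) and 10% of all genes. Against mock, with 9.18, 8.94 and 9.33, Ebp was -0.08 ± 0.32 with IFN-alpha and 0.21 ± 0.32 with IFN-gamma. Tm7sf2, a sterol reductase, had 7.46, 7.39 and 7.61 in IFN-alpha cells, against 7.44, 7.62 and 7.84 in IFN-gamma cells (-0.15 ± 0.19), and Sqle had 11.26, 11.33 and 11.19, against 11.14, 11.34 and 10.99 in IFN-gamma cells (0.10 ± 0.14).

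The difference from mock was not shown to change between 1 h and 3 h for any member. For IFN-alpha 0 of 27 were called (1.14% of all genes) and for IFN-gamma 0 of 27 (0.977% of all genes), and in limma 0 of 27 had an unadjusted p under 0.05 in either, against 2.8% and 3.44% of all genes. The medians were -0.12 and 0.02 over the members, and -0.06 and -0.0045 over all genes. Below 0 were 22 and 11 of 27, against 61.5% and 51% of all genes. The largest changes by p were Dhcr7 (-0.45 ± 0.33), Msmo1 (-0.21 ± 0.17) and Scd1 (-0.17 ± 0.15) for IFN-alpha. For IFN-gamma they were Tm7sf2 (0.27 ± 0.25), Pmvk (0.23 ± 0.23) and Idi1 (0.16 ± 0.17). All had an adjusted p of 1.

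The arrays of Dhcr7 behind this are given above, and those of the other 5 genes in part. Msmo1 in mock cells at 1 h had 11.52, 11.40, 11.44 and 11.54. Scd1 at 3 h had 10.83, 10.85 and 10.92 in IFN-alpha cells, against 10.945, 10.92 and 10.92 in mock cells, with a narrow overlap. Tm7sf2 had 7.44, 7.62 and 7.84 in IFN-gamma cells at 3 h, against 7.504, 7.34 and 7.62 in mock cells, and the groups overlapped. At 1 h Tm7sf2 had 7.11, 6.59, 7.10 and 6.997 in IFN-gamma cells, against 6.95, 7.28, 7.14 and 6.93 in mock cells, where IFN-gamma replicate 2, of low 5′ actin signal, was the lowest array. Pmvk at 3 h had 9.09, 8.90 and 8.75 in IFN-gamma cells, against 9.09, 8.98 and 8.74 in mock cells. Idi1 at 3 h had 11.84, 11.71 and 11.63 in IFN-gamma cells, against 11.67, 11.75 and 11.82 in mock cells. In Pmvk and Idi1 the groups overlapped at 3 h over most of their range.

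In mock cells at 1 h, 4sU was compared with its absence. None of the 27 was called, and 0% of all genes were, though 6 of 19305 probe sets were. At an unadjusted p under 0.05 in limma 4 of 27 were lower with 4sU, against 5.17% of all genes, and 0 of 27 higher, against 1.33% (6.5% in either direction). The median difference was -0.15 over the members and -0.04 over all genes, and 19 of 27 were below 0 where 55.5% of all genes were. Over all 53 tested probe sets of the members the median was -0.04 and 28 of 53 were below 0, so the lower median depends on the probe set taken for each gene. The 4 genes, Cyp51, Dhcr7, Srebf2 and Acaca, did not overlap between the groups, which held for 2.9% of all genes in that direction.

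Cyp51, the lanosterol demethylase, had 11.13, 11.12, 10.80 and 11.004 with 4sU, against 11.27, 11.52 and 11.29 without (-0.35 ± 0.12, adjusted p = 0.518 in limma). Dhcr7 had 7.27, 7.35, 6.50 and 7.13 with 4sU, against 7.47, 8.07 and 7.58 without (-0.64 ± 0.23, adjusted p = 0.548). Srebf2 had 8.44, 8.29, 7.32 and 8.25 with 4sU, against 8.51, 8.83 and 8.502 without (-0.54 ± 0.23, adjusted p = 0.657). In each of the 3, replicate 3 was the lowest array with 4sU and replicate 2, of low 5′ actin signal, the highest without it. Low 5′ actin signal was found on 1 of 4 arrays with 4sU and 2 of 3 without. In a limma fit without those arrays, which leaves 1 array without 4sU, assumed to vary like the other groups, 1 of 27 had an unadjusted p under 0.05, lower with 4sU, and 0 of 27 were called. With the replicate number as a block in limma 0.435% of all genes were called and 0 of 27 members, with a smallest adjusted p of 0.0726. These numbers were not taken to pair arrays with and without 4sU.

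Mock cells at 3 h and at 1 h differ in time since the medium change, in 4sU dose and in labelling window, which cannot be told apart here. Acaca, the acetyl-CoA carboxylase, was the only 1 of 27 genes called between them, higher at 3 h, where 9.66% of all genes were called (5.45% higher and 4.21% lower). The count of members depended on the fit: it was 0 in a limma fit of only these 2 groups (adjusted p = 0.095 for Acaca; 3.31% of all genes called) and 5 with array weights (Acaca, Nsdhl, Pmvk, Stard4 and Tm7sf2; 21.2% of all genes). With the replicate number as a block it was 7 (27% of all genes), though these numbers do not pair the arrays of the 2 times. In limma 6 of 27 were higher and 2 of 27 lower at an unadjusted p under 0.05, against 15.5% and 9.84% of all genes (25.3% together). The median difference was 0.16 over the members and 0.10 over all genes, and 9 of 27 were below 0 where 41.9% of all genes were. All 6 measured mevalonate genes were above 0 by gene value, Hmgcs1 only at 0.0037 ± 0.16. Other Hmgcs1 probe sets lay on both sides of 0, from -0.11 to 0.92. Idi1 was 0.12 ± 0.12 by gene value and -0.45 ± 0.19 on 1423804_a_at. The 6 higher genes were Acaca, Pmvk (0.48 ± 0.17, adjusted p = 0.0633), Ebp (0.78 ± 0.30, adjusted p = 0.0965), Nsdhl (0.35 ± 0.14), Lss, the lanosterol synthase (0.47 ± 0.20), and Tm7sf2 (0.41 ± 0.18). On the other tested probe set of Lss, 1426913_at, the difference was 0.04 ± 0.33. The 2 lower were Elovl6 (-0.34 ± 0.14, adjusted p = 0.132) and Stard4 (-0.51 ± 0.23, adjusted p = 0.151).

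Acaca had 8.98, 8.91 and 8.79 at 3 h, against 8.51, 8.17, 7.98 and 8.40 at 1 h, with no overlap. This is a difference of 0.63 ± 0.17, or 1.55-fold (95% interval 1.22 to 1.97; limma adjusted p = 0.0185). Set against mock cells at 1 h without 4sU, with 8.52, 8.88 and 8.54, the difference was 0.25 (adjusted p = 0.312). The call was lost on leaving out any of 4 arrays in turn: replicate 1 or 2 at 3 h (adjusted p = 0.0884 and 0.0712) and replicate 2 or 3 at 1 h (0.0514 and 0.0558). The number of members called was 0 in each of these fits and 2 without replicate 1 at 1 h. Arrays did not overlap, with 3 h higher, for 9 of 27 genes, Acaca included, and 19% of all genes, and with 3 h lower for 1 of 27, Elovl6, and 10.3% of all genes. Mvk, the mevalonate kinase, had 8.24, 8.12 and 8.11 at 3 h, against 7.81, 5.76, 7.22 and 7.89 at 1 h (0.99 ± 0.51, adjusted p = 0.215). The low value among these is replicate 2, of low 5′ actin signal.

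**Figure D4:**
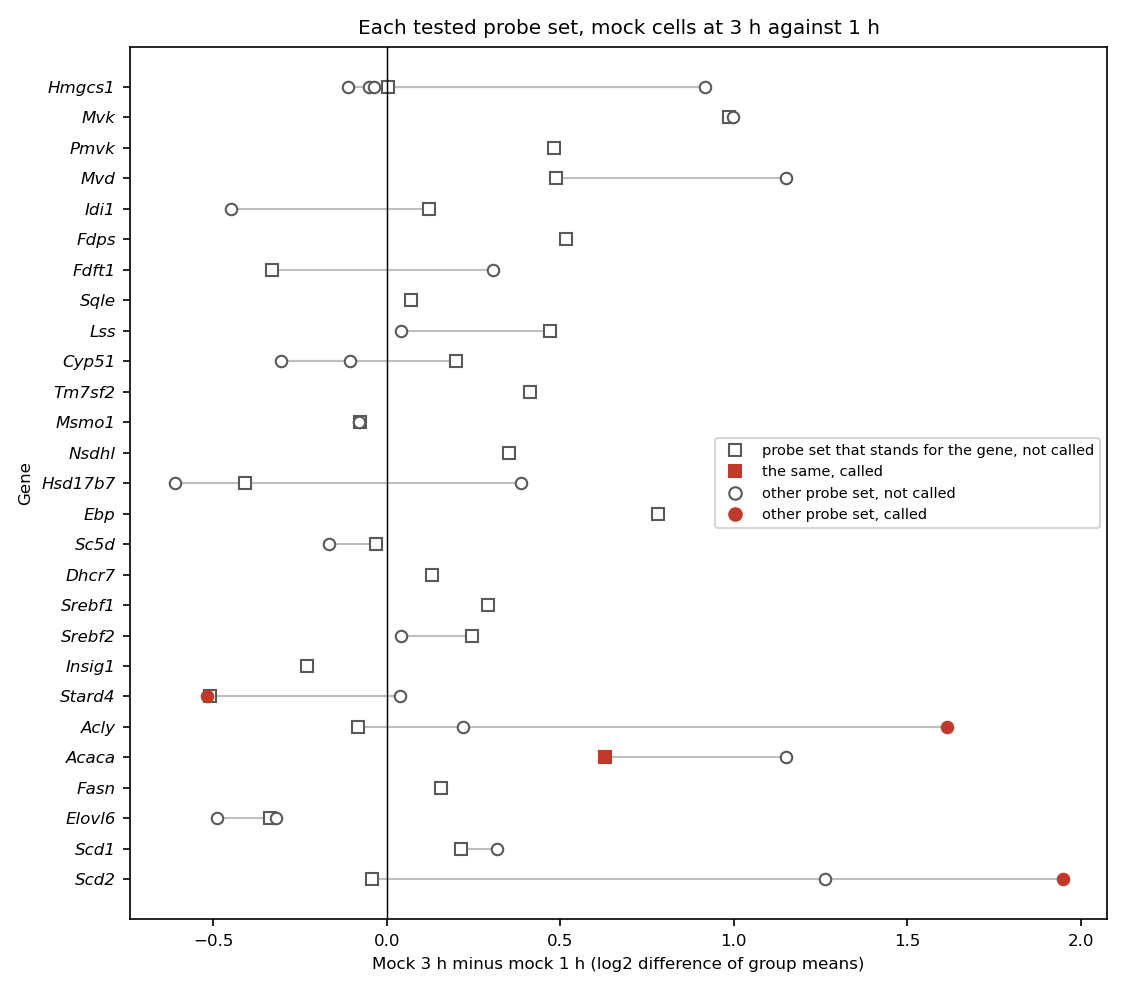
Difference between mock cells at 3 h and at 1 h (log2 difference of group means, horizontal axis) of each of the 53 tested probe sets, in 1 row per gene in pathway order. Squares are the probe sets that stand for the gene, circles the others, and filled red symbols are called. Of the 4 called, that of Acaca stands for its gene, and those of Acly (1.62) and Scd2 (1.95) lie apart from the probe set that stands for the gene. That of Stard4 (-0.52) lies beside the probe set that stands for Stard4 (-0.51).

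By probe set 4 of 53 were called between the mock times (11.3% of all probe sets), and for Scd2, Acly and Stard4 at least 1 other probe set of the gene gave a difference near 0. Scd2, a stearoyl-CoA desaturase, had 8.55, 8.59 and 8.74 at 3 h, against 7.21, 6.72, 6.28 and 6.49 at 1 h, on probe set 1415824_at. This was a rise of 1.95 ± 0.26, or 3.86-fold (limma adjusted p = 5.03e-05). On 1415822_at, which has the highest signal, Scd2 had 13.06, 13.22 and 13.18 at 3 h, against 13.14, 13.38, 13.05 and 13.20 at 1 h (-0.04 ± 0.13). On 1415823_at the difference was 1.26 ± 0.47 (adjusted p = 0.087).

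Acly, the ATP citrate lyase, had 9.93, 9.92 and 10.09 at 3 h, against 9.01, 7.72, 7.81 and 8.92 at 1 h, on 1425326_at, a rise of 1.62 ± 0.36 or 3.06-fold (limma adjusted p = 0.00689). On 1439459_x_at it had 11.48, 11.63 and 11.68 at 3 h, against 11.67, 11.94, 11.34 and 11.75 at 1 h (-0.08 ± 0.15), and on 1451666_at the difference was 0.22 ± 0.20. Stard4, which carries sterol between membranes, had 7.61, 7.79 and 7.87 at 3 h, against 8.20, 8.49, 8.13 and 8.29 at 1 h, on 1455011_at. It fell by 0.52 ± 0.14 (adjusted p = 0.0181), while 1429240_at gave -0.51 ± 0.23 (adjusted p = 0.151) and 1429239_a_at 0.04 ± 0.46. The call of 1455011_at was lost without replicate 1 or 2 at 3 h (adjusted p = 0.111 and 0.0579) or replicate 2 at 1 h (0.0629). Which part of the transcript each probe set reads was not analysed here.

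Probe sets of 1 gene also went apart with the actin ratio of the array. Hmgcs1, the HMG-CoA synthase, had 8.19, 7.55 and 7.57 on 1433446_at in replicate 2 of IFN-alpha, IFN-gamma and mock cells at 1 h, against 9.08 to 10.32 on the other 9 arrays of those groups. On 1433445_x_at the same 3 arrays had 12.11, 11.93 and 12.02, against 11.98 to 12.71. Across the 53 probe sets the mean of these 3 arrays minus that of the other 9 ran from -2.15 (Mvd, 1417303_at) to 1.16 (Cyp51, 1422534_at). The difference was -0.83 for Ebp and -1.05 for the probe set that stands for Mvd, against 0.88 for that of Fdft1 and 0.65 for that of Stard4. Their part in the 1 h results was not tested beyond leaving these arrays out, which gave 0 of 27 calls for each interferon comparison. Without them 3 of 27 were called between the mock times (Acaca, Ebp and Tm7sf2) and 16.8% of all genes, and the 1425326_at difference of Acly was 1.40 (adjusted p = 0.00188) and the 1415824_at difference of Scd2 1.96 (adjusted p = 0.000507).

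**Figure D5:**
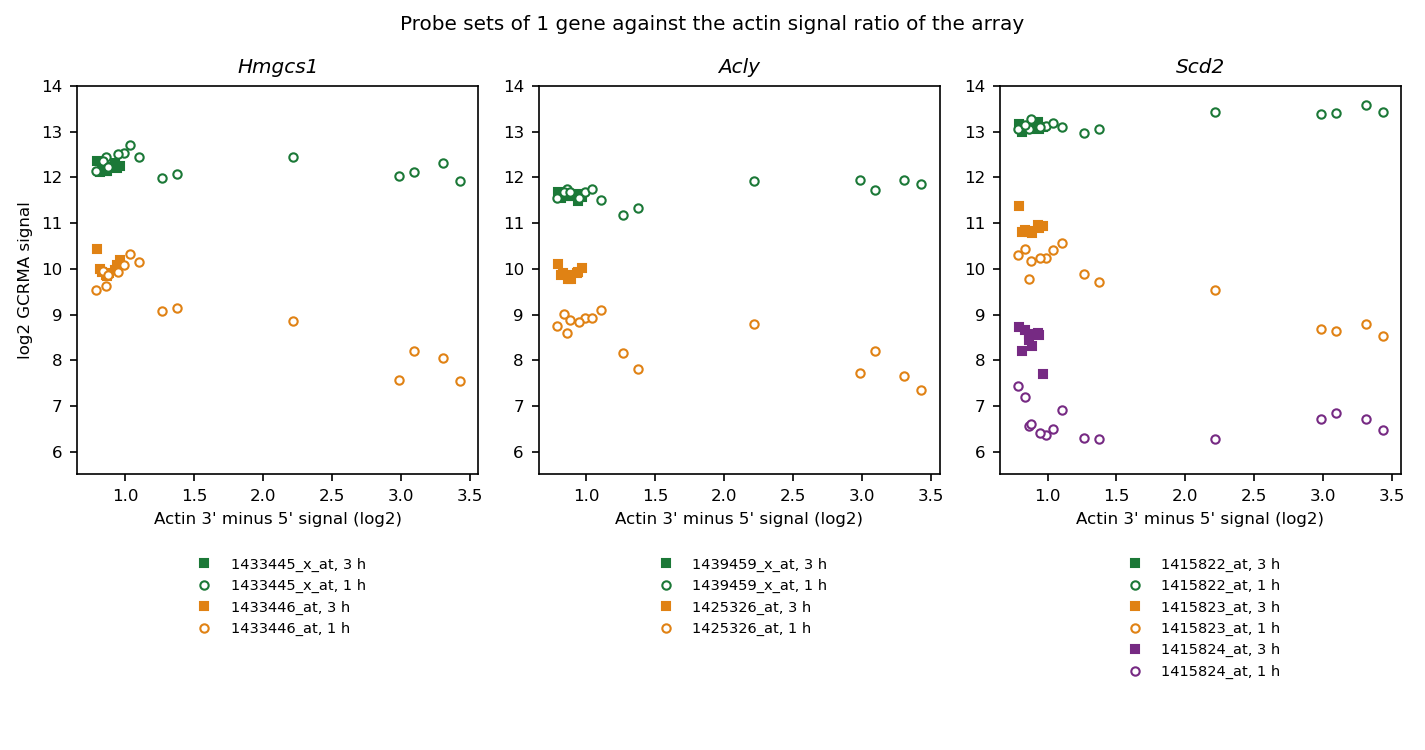
log2 GCRMA signal (vertical axis) of probe sets of Hmgcs1, Acly and Scd2 against the actin 3′ minus 5′ signal of the array (log2, horizontal axis), for 9 arrays at 3 h (filled squares) and 15 at 1 h (open circles). Probe sets 1433446_at of Hmgcs1 and 1415823_at of Scd2 are lower on the 5 arrays at or above 2.22 on the horizontal axis, and 1415824_at of Scd2 is higher at 3 h at a like ratio.

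Other genes of the pathways were taken from fixed lists of textbook members. With interferon, by gene value, none of the 9 measured further sterol and isoprenoid genes, 8 SREBP control genes, 5 oxysterol and LXR genes and 14 further fatty acid and glycerolipid genes was called in any of the 8 comparisons. In limma 0 of these genes had an unadjusted p under 0.05 with either interferon at 1 h. At 3 h Rnf139, an endoplasmic reticulum ubiquitin ligase, did with both (0.64 ± 0.17 with IFN-alpha, adjusted p = 0.0652, and 0.43 ± 0.17 with IFN-gamma), besides Lpin1 with IFN-alpha (-0.47) and Acsl3 and Mylip with IFN-gamma (-0.37 and -0.42). Of all genes 3.59% with IFN-alpha and 5.25% with IFN-gamma had such a p at 3 h, and both comparisons share the mock arrays. Ch25h, the cholesterol hydroxylase that interferon induces in macrophages, was not above background, with means of 2.20 with IFN-alpha, 2.19 with IFN-gamma and 2.20 in mock cells at 3 h. Abca1, the sterol exporter under LXR, averaged 4.81 with IFN-alpha, 4.32 with IFN-gamma and 5.05 in mock cells at 3 h, differences of -0.24 ± 0.51 and -0.73 ± 0.51. Insig2, the second SREBP retention factor, was -0.02 ± 0.16 with IFN-alpha and -0.16 ± 0.16 with IFN-gamma at 3 h. Npc2, a lysosomal sterol carrier, rose with IFN-alpha at 3 h on 1 of 4 probe sets, by 1.02 ± 0.23 (limma adjusted p = 0.0168), while its gene value differed by 0.34 ± 0.22 and was not called.

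Between the mock times the oxysterol and LXR list had 1 gene higher and 1 lower of 5, read against 5.45% and 4.21% of all genes. Lpcat3, which puts polyunsaturated chains into phospholipids, averaged 9.04 at 3 h and 8.13 at 1 h (0.91 ± 0.21, limma adjusted p = 0.00908). Mylip, the ubiquitin ligase of lipoprotein receptors, averaged 6.38 at 3 h and 7.28 at 1 h (-0.91 ± 0.16, adjusted p = 0.000724). Of the fatty acid and glycerolipid list 2 of 14 were higher, Dgat1 (1.08 ± 0.26, adjusted p = 0.01) and Dgat2 (1.37 ± 0.29, adjusted p = 0.00458), which both make triglyceride. The Dgat2 mean at 1 h, 3.32, was below background, so that its difference is no measured fold. Of SREBP control genes 1 of 8 was higher, Fbxw7, the ubiquitin ligase subunit that marks nuclear SREBP for destruction (0.80 ± 0.21, adjusted p = 0.0181). Of the further sterol and isoprenoid list 0 of 9 were called by gene value and 1 of 9, Tmem97, had an unadjusted p under 0.05 in limma. Other probe sets of Cyb5b, Ggps1 and Acsl4 rose and of Npc2 and Lpin1 fell. Of the fibroblast markers Postn fell by 1.28 ± 0.30 (adjusted p = 0.00945), 1 of 12.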

How the data were processed

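The arrays are Affymetrix mouse arrays, and the series' value table was used. Its deposited log2 values were made by the authors with GCRMA, per the submitters' processing notes, with no version given. The scanner files were not used here. Of 45101 probe sets, 64 controls were set aside, and 34945 of the rest carry a single gene symbol in the platform annotation, 932 several and 9160 none. Probe sets above log2 4 on at least 3 arrays were kept (19305, for 9421 genes), and the brightest probe set on average stands for a gene.

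All 24 arrays were fitted together with 7 group means with lmFit and eBayes of limma 3.58.1 in R 4.3.3, leaving 17 residual degrees of freedom. P-values were adjusted by Benjamini-Hochberg over the 19305 probe sets of each of 10 comparisons, and called means an adjusted p under 0.05. Errors after ± are standard errors of differences and intervals are 95%. In data simulated for IFN-alpha over mock at 3 h with 200 of 19305 probe sets changed at each size, 0% of log2 changes of 0.5, 36% of 1 and 89% of 2 were recovered. The simulated noise was independent between arrays and had the spread pooled over all 7 groups. It had neither the smaller spread of the 3 h arrays nor their pairing, so these shares need not hold for the real 3 h arrays.

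Deviations of arrays with the same replicate number correlated at 0.465 to 0.914 within the 1 h groups with 4sU and 0.128 to 0.646 within the 3 h groups. In both sets the numbers were taken to pair arrays. At 1 h with 4sU 4 of 4 arrays matched their own number best in each comparison. At 3 h it was 3 of 3 between IFN-alpha and mock and 2 of 3 in the other comparisons, so the pairing is weaker there. The numbers were not taken to pair arrays between mock cells at 3 h and 1 h (-0.232 to 0.127) or with and without 4sU (0.0809 to 0.802). The main fit did not use this pairing, so errors, intervals and adjusted p-values are unpaired unless the replicate block is named. The members and lists were chosen with earlier results of these data known. Values on every array are given for the called members or, where none was called, for the 3 with the smallest p, and called genes of the lists are named. Alternatives were a replicate block, array weights, only the groups compared, other filters and scalings, gene means and left-out arrays. Figures were drawn with Python 3.11.15, pandas 2.3.3 and matplotlib 3.10.9.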

Additional observations from a re-analysis of the deposited data

Results flagged for a closer look

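In 2 of the 81 groups of 4 arrays examined, 1 array of a member lay far from the others by Dixon's test, where chance gives about 4.05 (1 in 20). Nsdhl, which removes a carboxyl group from sterol intermediates, had 10.72 on replicate 4 of IFN-alpha cells at 1 h, below 11.03, 11.03 and 11.01 on the other arrays of the group. Ebp had 7.81 on replicate 2 of IFN-gamma cells at 1 h, below 8.66, 8.57 and 8.71 on the others, and that array is one of low 5′ actin signal (3′ minus 5′ signal 3.43). No comparison of Nsdhl or Ebp at 1 h was called.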

How the results depend on the processing

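Between the mock times the count of member genes called, 1 of 27, was 7 with the replicate block (2546 of all genes in place of 910), 5 with array weights (2000), 3 without arrays of low 5′ actin signal (1581), 4 against mock cells without 4sU (1444), 3 with gene means of probe sets and 0 in a fit of only the groups compared (312). Leaving out 1 array gave 0 to 2 (389 to 1194). With array weights it was 1 for IFN-alpha over mock at 3 h (988 of all genes in place of 172) and 2 for IFN-gamma (1206 in place of 221). In the other interferon comparisons and for 4sU it was 0 under every alternative run, left-out arrays included. The replicate block took the calls among all genes to 44, 97, 377, 79, 354 and 148, in place of 29 (IFN-alpha over mock at 1 h), 43 (IFN-gamma at 1 h), 221 (IFN-gamma at 3 h), 38 and 176 (IFN-alpha over IFN-gamma at 1 h and 3 h) and 92 (IFN-gamma response), and for 4sU to 41 in place of 0. It moved no other count of members. A fit of only the groups compared gave 9 and 16 for IFN-alpha and IFN-gamma at 1 h, 6 for IFN-alpha over IFN-gamma at 1 h, and 294, 533 and 483 for the 3 comparisons at 3 h. Array weights gave 1092 for IFN-alpha over IFN-gamma at 3 h, 172 and 193 for the responses, and leaving out the arrays of low 5′ actin signal 268. For 4sU, no filter and a floor gave 2 each. Scd1 with IFN-alpha at 1 h was -0.00047 with gene means. The other values compared were those of single probe sets and the medians of the member genes. Of these values 744 were classed as the same, 11 lost a call, 2 gained one and 1 reversed, and causes were not tested. A median was classed as the same within 0.216 of the main value, without regard to direction or threshold. That limit is the median pooled SD of the member genes within a group. Quantile scaling and aligned medians put the median of all genes between the mock times at 0.03 and -0.01, in place of 0.10.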
